A study of Mus musculus with 12 samples.

Results

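Serum amyloid and acute-phase genes were followed in mouse lung as a set of 9 genes taken by name from the 17920 genes of each library: Saa1, Saa2, Saa3, Hp, Lbp, Ptx3, Serpina3n, Orm1 and Orm2. All 9 were found, and 7 of them (all but Saa1 and Saa2) reached at least 0.5 FPKM, a fragment count scaled to gene length and library size, in at least 3 of the 12 libraries and were tested with 13735 genes in all. The lungs came from male BALB/c mice aged 6 to 8 weeks, with 24 mice in 4 groups of 6 and 3 mice of each group sequenced after 14 days of modelling. The LPS+bLF mice received lipopolysaccharide and bovine lactoferrin, the LPS mice lipopolysaccharide (50 µL at 1 µg/µL), the bLF mice bovine lactoferrin (200 mg/kg/day), and the control mice are labelled NC with no agent named. Lipopolysaccharide is a glycolipid of Gram-negative bacterial envelopes, and lactoferrin is a milk protein that binds iron. The treatment label of the LPS+bLF samples spells the agents as LBS+BLF, and the route and day of LPS dosing are not in the labels.

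The acute-phase response is the shift in secreted proteins that follows infection or injury. Its main source is the liver, where IL-6, IL-1 and TNF act through STAT3, C/EBP and NF-kB family factors, but several of its genes are also transcribed in lung epithelium, macrophages, neutrophils and fat. Serum amyloid A proteins are lipoprotein-bound, haptoglobin binds free haemoglobin, and the orosomucoids carry small lipophilic molecules in plasma. Lipopolysaccharide-binding protein hands LPS to CD14, pentraxin 3 is a soluble pattern recognition molecule, and Serpina3n is an inhibitor of serine proteases. The hepatocyte genes Alb, which encodes albumin, and Apoa1, which encodes the main protein of high-density lipoprotein, lay between 0.03 and 0.65 FPKM and between 0 and 0.23 FPKM, so both were near 0 in all 12 libraries. Of 14 hepatocyte markers in the files, 2 passed the filter, Cyp2e1 and Trf, which encode a cytochrome P450 and transferrin. The 14 summed to 83.47 to 524.6 FPKM in LPS+bLF, 62.61 to 164.3 in LPS, 110.6 to 243.2 in bLF and 137.6 to 204.6 in control, and the highest sums were in LPS+bLF replicate 2 (524.6), bLF replicate 1 (243.2) and control replicate 1 (204.6). Nearly all of these 3 sums came from Cyp2e1 (371.46, 114.37 and 120.83 FPKM) and Trf (151.55, 127.44 and 83.17 FPKM). Elsewhere Cyp2e1 was at 0.97 to 11.01 FPKM and Trf at 59.29 to 158.8 FPKM.

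Each library held 16714327 to 17820645 counts, and 3 counts, the one-sided limit that a count of 0 allows, were 0.168 to 0.179 CPM (counts scaled to the library total). Intervals and limits cover counting error only. LPS replicate 1 stood apart, with 3072 genes at 0 where the other libraries had 1508 to 1974. In control replicate 2 the gene Scgb1a1 alone took 23.8% of all counts, against 1.68 to 7.43% in the other libraries. Its part in the levels of the members there was not tested. Control replicate 1, bLF replicate 1 and LPS+bLF replicate 2 held fat transcripts: Adipoq, the adipocyte hormone adiponectin, was at 239.43 FPKM in LPS+bLF replicate 2, 65.32 FPKM in bLF replicate 1 and 119.55 FPKM in control replicate 1, and at 0 to 4.99 FPKM in the other 9 libraries. Cardiac muscle markers summed to 178.1 to 5061 FPKM in LPS+bLF, 77.4 to 502.5 in LPS, 157.9 to 5925 in bLF and 80.9 to 1217 in control, and 9 of the 12 were above the other 9 libraries in each of these 3. Skeletal muscle markers summed to 7732 FPKM in LPS+bLF replicate 3 and to at most 502.7 elsewhere. Values without LPS replicate 1 or without the 3 libraries with fat transcripts stand beside the results they moved. Nothing in the labels says more of the replicates than that the libraries come from separate mice.

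Saa1 and Saa2 were nearly silent in 11 libraries, where Saa3 ranged between 9.4 and 236.42 FPKM, and all 3 were highest in LPS replicate 1. Saa1 and Saa2 encode the circulating serum amyloid A proteins, and Saa3 encodes a mouse form made largely outside the liver. Per RefSeq (GRCm38.p6), Saa1 (chromosome 7, 46740497 to 46743181, minus strand), Saa2 (46751833 to 46754313, plus strand), Saa3 (46711998 to 46719615, minus strand) and Saa4 lie within 42316 bp, and the 8651 bp between Saa1 and Saa2 separate 2 genes read in opposite directions. Reads of Saa1 and Saa2 are uncertain between the pair, which are near-identical copies, and whether the counting used strand was not stated.

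The RefSeq promoter windows (GRCm38.p6, 250 bases before to 50 bases after the table's start site, 5′ to 3′ on the gene's strand) are printed for the 3 serum amyloid genes because they shared their highest library. The start site of the table lies inside the RefSeq gene span for Saa1 and Saa3. Capitals mark a C/EBP core (TTGCNNAA, either strand) or a match to the NF-kB consensus of 10 letters (either strand). The windows are chr7:46742931-46743230 for Saa1, chr7:46751583-46751882 for Saa2 and chr7:46715627-46715926 for Saa3.
Saa1: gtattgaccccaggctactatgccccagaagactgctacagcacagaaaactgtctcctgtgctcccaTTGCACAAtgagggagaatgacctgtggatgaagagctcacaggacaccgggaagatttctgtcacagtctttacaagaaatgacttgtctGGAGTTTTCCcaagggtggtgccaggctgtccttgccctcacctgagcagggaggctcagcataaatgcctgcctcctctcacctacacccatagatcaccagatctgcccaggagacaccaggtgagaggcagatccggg
Saa2: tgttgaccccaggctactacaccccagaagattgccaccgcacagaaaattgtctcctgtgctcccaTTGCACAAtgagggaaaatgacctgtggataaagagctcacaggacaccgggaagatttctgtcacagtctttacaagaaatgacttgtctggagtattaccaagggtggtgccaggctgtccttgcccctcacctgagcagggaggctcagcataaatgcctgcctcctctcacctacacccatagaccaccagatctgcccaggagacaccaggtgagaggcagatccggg
Saa3: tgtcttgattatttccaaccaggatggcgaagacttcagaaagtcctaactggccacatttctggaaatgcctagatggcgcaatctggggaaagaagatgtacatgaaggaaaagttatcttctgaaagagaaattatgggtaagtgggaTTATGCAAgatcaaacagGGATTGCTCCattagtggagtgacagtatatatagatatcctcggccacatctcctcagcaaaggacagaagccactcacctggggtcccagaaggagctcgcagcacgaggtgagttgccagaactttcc

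Aligned, the Saa1 and Saa2 windows matched at 287 of 301 columns (95.3%), whereas the Saa1 and Saa3 windows matched at 50.9% of columns. The C/EBP core stood at −182 to −175 in Saa1, at −183 to −176 in Saa2 and, on the minus strand, at −99 to −92 in Saa3, counted from the start site with no position 0. It was in 10.8% of the 32851 windows of the table. The NF-kB consensus stood at −91 to −82 in Saa1 and at −81 to −72 in Saa3 and was not found in the Saa2 window; 26.8% of all windows held it. The STAT core TTCNNNGAA, present in 8.3% of windows, was found in none of the 3. The C/EBP core was also in the windows of Ptx3 (−57 to −50) and Orm2 (−120 to −113), which are not printed. These 2 members were not highest in LPS replicate 1. The Ptx3 window held the NF-kB consensus as well. All of these are matches of letters and say nothing of binding.

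Saa1 was at 0.31, 0 and 0.77 FPKM in LPS+bLF replicates 1 to 3, at 25.9, 0.16 and 0.31 in LPS, at 0.16, 0.16 and 0.46 in bLF, and at 0.32, 0.16 and 0.16 in control. LPS replicate 1 held 168 of its counts (95% Poisson interval 144 to 195), and no other library held more than 5. Saa2 was at 0.62, 0 and 0 FPKM in LPS+bLF, at 4.03, 0.16 and 0 in LPS, at 0.16, 0 and 0 in bLF, and at 0.16, 0 and 0 in control. Both genes had their only level above 1 FPKM in LPS replicate 1, which held 89.8% of all Saa1 counts and 78.8% of all Saa2 counts, while the other 2 LPS mice lay within the range of the other groups. Neither gene passed the filter on low values. Fitted without the filter, Saa1 had an adjusted p of 0.643 in LPS versus control and 0.711 in LPS+bLF versus LPS, and Saa2 had 0.748 and 0.731 (edgeR quasi-likelihood test, Benjamini-Hochberg). The 2 other LPS libraries held 1 and 2 counts of Saa1 and 1 and 0 of Saa2, so no fit without LPS replicate 1 is given.

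Saa3 was the most abundant of the 3 per length. It was at 21.19, 236.42 and 54.41 FPKM in LPS+bLF, at 3021.2, 36.25 and 30.39 in LPS, at 48.76, 18 and 9.4 in bLF, and at 30.94, 103.43 and 21.39 in control. LPS replicate 1 was 12.8 times the next library, LPS+bLF replicate 2, and 97.6 times the median of the other 11; the other 2 LPS libraries ranked 6th and 8th of 12, so the groups overlapped. The group means were 104 ± 116 FPKM in LPS+bLF, 1030 ± 1730 in LPS, 25.4 ± 20.7 in bLF and 51.9 ± 44.9 in control (SD, n = 3). The fitted log2 fold change was 4.59 ± 1.78 (SE) in LPS versus control, with an unadjusted edgeR p of 0.0259 (adjusted p = 0.655), and −3.58 ± 1.70 in LPS+bLF versus LPS (adjusted p = 0.689). Without LPS replicate 1 both had the opposite sign, at −0.75 in LPS versus control and 1.77 in LPS+bLF versus LPS. By limma on log2(FPKM + 1) the differences were 1.86 and −1.20, and the unadjusted p in LPS versus control was 0.255 by limma, 0.145 with a replicate block, 0.0818 without the 3 libraries with fat transcripts and 0.0536 with only the groups compared.

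**Figure D1:**
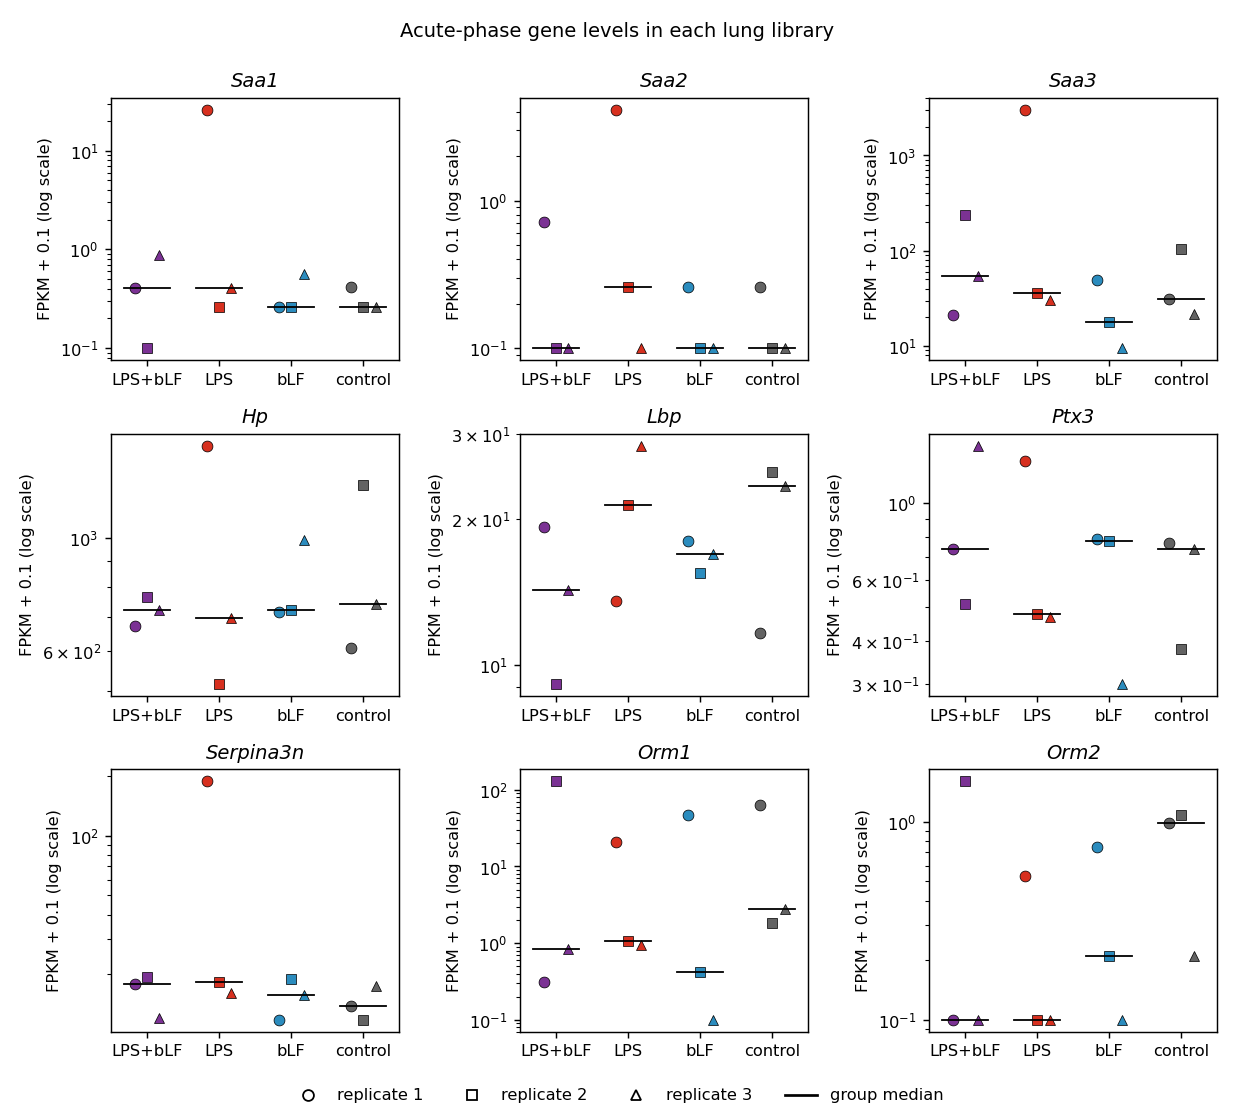
FPKM + 0.1 (log axis, a separate range in each panel) of the 9 genes in each library, with LPS+bLF, LPS, bLF and control from left to right. Symbols mark replicates 1 to 3 and the line is the group median. Saa1, Saa2, Saa3 and Serpina3n each have 1 point far above the rest, LPS replicate 1, at 25.9, 4.03, 3021.2 and 188.08 FPKM, and Orm1 has 3 points between 47.49 and 128.59 FPKM, 1 each in LPS+bLF, bLF and control.

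Serpina3n (chromosome 12, 104406646 to 104414334, plus strand) was also highest in LPS replicate 1 and lay in a narrow range elsewhere. It was at 17.82, 19.16 and 11.96 FPKM in LPS+bLF, at 188.08, 18.23 and 15.97 in LPS, at 11.67, 18.92 and 15.69 in bLF, and at 13.71, 11.67 and 17.34 in control. All libraries but LPS replicate 1 lay between 11.67 and 19.16 FPKM, and LPS replicate 1 was 9.82 times the highest of them. The group means were 16.3 ± 3.83 FPKM in LPS+bLF, 74.1 ± 98.7 in LPS, 15.4 ± 3.63 in bLF and 14.2 ± 2.87 in control (SD, n = 3). The log2 fold change was 2.61 ± 0.86 (SE) in LPS versus control (unadjusted p = 0.0111, adjusted p = 0.548) and −2.36 ± 0.85 in LPS+bLF versus LPS (unadjusted p = 0.0178, adjusted p = 0.689). Without LPS replicate 1 they were 0.21 (unadjusted p = 0.406) and 0.044 (unadjusted p = 0.862). By limma on log2(FPKM + 1) they were 1.39 and −1.22, with unadjusted p of 0.0781 and 0.117, and with a replicate block the unadjusted p was 0.0558 and 0.0744. Without the 3 libraries with fat transcripts it was 0.0547 and 0.0583. Of the 6 other Serpina3 cluster genes in the files, 4 were tested. Of the 6, 1 was highest in LPS replicate 1, beside 18.8% of all tested genes. The 6 summed to 25.82 FPKM there and to 16.47 to 35.58 FPKM over all libraries. The cluster is a family of close copies, so how reads were split among them is uncertain.

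The Serpina3n window is shown because this gene had the second pattern of the same kind. It spans chr12:104406458-104406757 on the plus strand, and its start site also lies inside the RefSeq gene span. Capitals mark the NF-kB consensus, found at −171 to −162 and, on the minus strand, at −42 to −33; the C/EBP core was not in this window.
Serpina3n: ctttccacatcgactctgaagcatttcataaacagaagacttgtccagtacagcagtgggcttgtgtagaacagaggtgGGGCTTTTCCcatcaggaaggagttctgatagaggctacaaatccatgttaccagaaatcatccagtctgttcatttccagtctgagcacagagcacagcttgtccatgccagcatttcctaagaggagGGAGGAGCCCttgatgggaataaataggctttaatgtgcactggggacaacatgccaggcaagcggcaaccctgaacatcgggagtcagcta

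Other genes were also highest in LPS replicate 1, beside which these values stand. Of the 13735 genes tested, 18.8% had their highest level there, against 3 of 7 members (Saa3, Hp and Serpina3n), and 0.371% were over 5 times the next library there, against 2 of 7 members (Saa3 and Serpina3n), a limit chosen after the values were seen. Neutrophil markers summed to 494.1 to 643.5 FPKM in LPS+bLF, 601.7 to 2423 in LPS, 443.8 to 734.5 in bLF and 324.8 to 945.8 in control, and 12 of the 20 were highest in LPS replicate 1, where Elane was at 0. Genes known to be induced by glucocorticoids summed to 1013 to 2957 FPKM in LPS+bLF, 1155 to 17900 in LPS, 1056 to 1921 in bLF and 742.4 to 1905 in control. Of these, 7 of 15 were highest in LPS replicate 1, among them the metallothionein Mt2 (5093.78 FPKM) and the steroid receptor chaperone Fkbp5 (35.28 FPKM). Others of the list were not: Dusp1 was at 29.93 FPKM there, below every control library (49.88 to 84.42 FPKM). Tsc22d3 (109.9 FPKM) and Per1 (34.11 FPKM) were higher in bLF replicate 3, at 135.8 and 34.69 FPKM. Mesothelial markers summed to 485.8 to 763 FPKM in LPS+bLF, 649.1 to 1129 in LPS, 504.9 to 741.2 in bLF and 555.8 to 715.5 in control, with 5 of 13 highest in that library. The part of these genes in the Saa and Serpina3n levels was not tested. In bulk lung RNA, fewer cells of a type and less RNA per cell cannot be told apart.

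**Figure D2:**
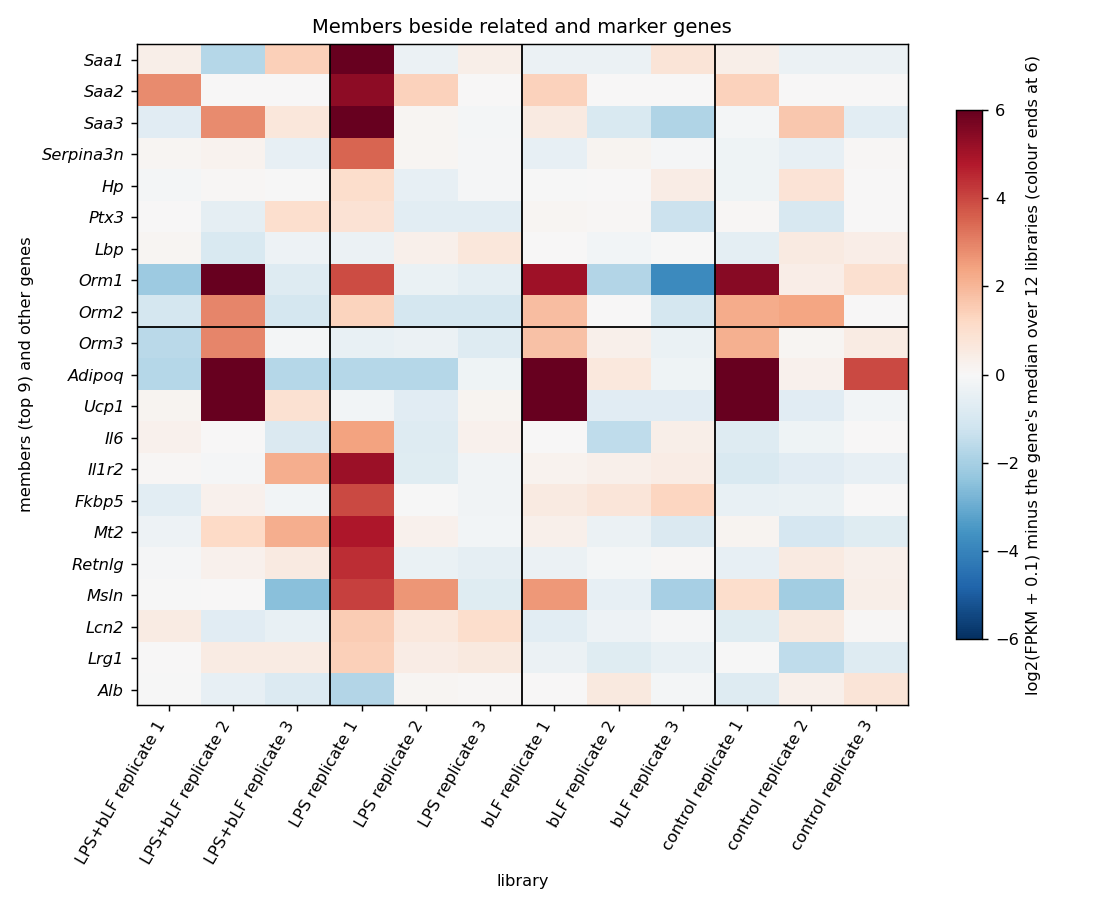
The 9 members (upper rows) and 12 related or marker genes (lower rows) in the 12 libraries, ordered LPS+bLF, LPS, bLF and control. Colour is log2(FPKM + 0.1) minus the gene's median over the 12 libraries and ends at 6. Among others, LPS replicate 1 is red for Saa1, Saa2, Saa3, Serpina3n, Orm1, Il1r2, Fkbp5, Mt2 and Retnlg, and LPS+bLF replicate 2, bLF replicate 1 and control replicate 1 are red for Orm1, Orm2, Orm3, Adipoq and Ucp1, with Orm2 also red in control replicate 2.

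Haptoglobin was abundant in every lung, and its groups overlapped. Hp (chromosome 8, 109575128 to 109579172, minus strand) was at 669.54, 764.37 and 719.81 FPKM in LPS+bLF, at 1518.14, 515.75 and 696.28 in LPS, at 713.76, 722.34 and 989.05 in bLF, and at 608.39, 1268.14 and 742.04 in control. LPS replicate 1 was the highest, 1.2 times control replicate 2, and LPS replicate 2 was the lowest, so the LPS group spanned the range of all libraries. The mean was 718 ± 47.4 FPKM in LPS+bLF, 910 ± 534 in LPS, 808 ± 157 in bLF and 873 ± 349 in control (SD, n = 3). The log2 fold change was 0.17 ± 0.47 (SE) in LPS versus control and −0.44 ± 0.47 in LPS+bLF versus LPS (adjusted p = 0.882 and 0.852). The first was −0.61 and the second 0.34 without LPS replicate 1, and the first was −0.049 without control replicate 1. Without LPS replicate 1 and the 3 libraries with fat transcripts the first was −0.83 (edgeR unadjusted p = 0.0316, adjusted p = 0.574).

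Of the orosomucoids, plasma carriers of lipophilic molecules, Orm1 was high in 1 library each of LPS+bLF, bLF and control, and Orm2 was at or under 1.5 FPKM in all 12 libraries. Orm1 (chromosome 4, 63344556 to 63348163) and Orm2 (63362449 to 63365877) flank Orm3 on the plus strand, all 3 within 21322 bp, and as close copies they share reads in part. Orm1 was at 0.21, 128.59 and 0.73 FPKM in LPS+bLF, at 20.69, 0.97 and 0.84 in LPS, at 47.49, 0.32 and 0 in bLF, and at 62.4, 1.73 and 2.65 in control. Its 3 highest libraries were LPS+bLF replicate 2, control replicate 1 and bLF replicate 1, the same 3 libraries that held fat transcripts, and the fourth was LPS replicate 1. Of all tested genes, 5.59% were above the other 9 libraries in each of these 3, as Orm1 was.

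Orm2 was at 0, 1.5 and 0 FPKM in LPS+bLF, at 0.43, 0 and 0 in LPS, at 0.65, 0.11 and 0 in bLF, and at 0.89, 0.98 and 0.11 in control, from at most 14 counts a library. LPS+bLF replicate 2, control replicates 1 and 2 and bLF replicate 1 held its highest levels, and 5 of the 12 libraries were at 0. Orm3, not a member, was at 0.55, 15.24 and 1.74 FPKM in LPS+bLF, at 1.4, 1.47 and 1.07 in LPS, at 6.73, 2.43 and 1.46 in bLF, and at 8.66, 2.13 and 2.76 in control, and its 3 highest libraries were again those 3. Fat markers summed to 151 to 26190 FPKM in LPS+bLF, 154.2 to 374.1 in LPS, 175 to 6912 in bLF and 146.4 to 13290 in control, and 18 of 20 were above the other 9 libraries in each of the 3. Ucp1, which uncouples respiration in brown adipocytes, was at 157.72 FPKM in LPS+bLF replicate 2, 57.37 in bLF replicate 1, 88.08 in control replicate 1 and at most 0.2 elsewhere. The part of these and of the cardiac and hepatocyte markers in the Orm levels was not tested.

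The fitted log2 fold change of Orm1 was −1.23 ± 2.30 (SE) in LPS versus control (adjusted p = 0.829) and 2.35 ± 2.36 in LPS+bLF versus LPS (adjusted p = 0.844). Without the 3 libraries with fat transcripts both had the opposite sign, at 2.04 and −4.20, and leaving out control replicate 1 alone gave 2.03 in LPS versus control, as leaving out LPS+bLF replicate 2 alone gave −4.19 in LPS+bLF versus LPS. Without LPS replicate 1 they were −4.57 and 5.70, and without all 4 libraries −1.32 and −0.84. Orm2 was at −1.98 ± 1.77 and 1.64 ± 1.80 (adjusted p = 0.706 and 0.857), and without the 3 libraries its second value was −3.65, where the remaining LPS+bLF libraries were all at 0 and the value depends on the prior count.

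**Figure D3:**
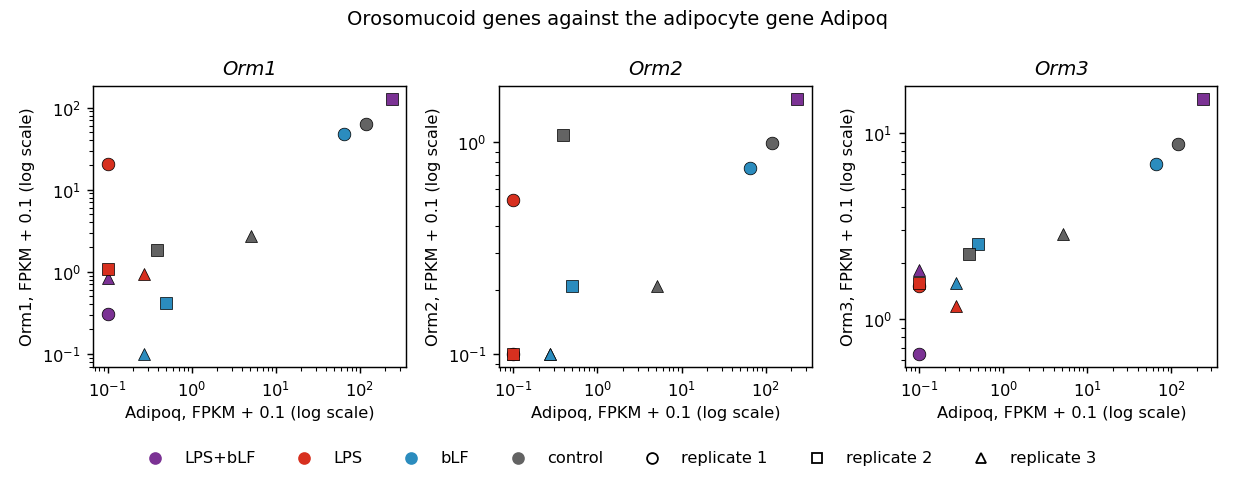
Orm1, Orm2 and Orm3 against Adipoq in each library, FPKM + 0.1 on log axes, coloured by group with symbols for replicates 1 to 3. The 3 points at the right, with Adipoq at 65.32 to 239.43 FPKM, are the highest for Orm1 (47.49 to 128.59 FPKM) and Orm3 (6.73 to 15.24 FPKM), and LPS replicate 1 has Orm1 at 20.69 FPKM with Adipoq at 0.

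The 2 pattern recognition genes gave no separation of groups. Lbp (chromosome 2, 158306493 to 158332852, plus strand) was at 19.15, 9.04 and 14.15 FPKM in LPS+bLF, at 13.45, 21.28 and 28.25 in LPS, at 17.94, 15.38 and 16.85 in bLF, and at 11.55, 24.95 and 23.29 in control. Its lowest levels were in LPS+bLF replicate 2, control replicate 1 and LPS replicate 1, and the highest in LPS replicate 3. The mean was 14.1 ± 5.06 FPKM in LPS+bLF, 21.0 ± 7.4 in LPS, 16.7 ± 1.28 in bLF and 19.9 ± 7.3 in control (SD, n = 3). The log2 fold change was 0.08 ± 0.34 (SE) in LPS versus control (adjusted p = 0.928) and −0.57 ± 0.34 in LPS+bLF versus LPS (adjusted p = 0.713). The first was −0.21 without control replicate 1 and −0.17 without LPS replicate 3. The second was −0.34 (unadjusted p = 0.360) without LPS+bLF replicate 2, −0.73 without LPS replicate 1 and −0.50 (unadjusted p = 0.0371) without it and the 3 libraries with fat transcripts.

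Ptx3 (chromosome 3, 66219887 to 66225806, plus strand) was low in all libraries. It was at 0.64, 0.41 and 1.37 FPKM in LPS+bLF, at 1.23, 0.38 and 0.37 in LPS, at 0.69, 0.68 and 0.2 in bLF, and at 0.67, 0.28 and 0.64 in control, and its counts summed to 72 in LPS+bLF, 57 in LPS, 46 in bLF and 46 in control. LPS+bLF replicate 3 and LPS replicate 1 were the highest and the groups overlapped. The log2 fold change was 0.48 ± 0.71 (SE) in LPS versus control (adjusted p = 0.782) and 0.19 ± 0.70 in LPS+bLF versus LPS (adjusted p = 0.974). The first was −0.52 without LPS replicate 1, and the second was −0.15 with LPS replicate 2 left out, −0.18 with LPS replicate 3 left out and −0.45 with LPS+bLF replicate 3 left out. That second value was 1.19 without LPS replicate 1 and 1.498 (unadjusted p = 0.0491) without it and the 3 libraries with fat transcripts. LPS+bLF replicate 3 was also the library with skeletal muscle markers at 7732 FPKM, and their part in its Ptx3 level was not tested.

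Over the 5 comparisons, which share groups, 0 of the 7 tested members passed an adjusted p of 0.05 by edgeR's quasi-likelihood test, and so did 0 of the 13735 genes (0%) in each. At an unadjusted p under 0.05, Saa3 and Serpina3n were higher in LPS than in control, where 5.52% of all genes were, and Serpina3n was lower in LPS+bLF than in LPS, where 3.65% were; no member reached it in the other 3 comparisons. None of these 3 results kept an unadjusted p under 0.05 without LPS replicate 1, without the 3 libraries with fat transcripts, with a replicate block or by limma on log2(FPKM + 1). By limma the count of members was 0. DESeq2 called 0 as well but gave no p for Saa3, Serpina3n and Orm1 in LPS versus control and in LPS+bLF versus LPS. No member had groups without overlap, higher or lower: this held for 4.00% and 3.92% of all genes in LPS versus control, 4.15% and 4.91% in LPS+bLF versus LPS, 2.21% and 5.74% in bLF versus control, and 3.91% and 7.80% in LPS+bLF versus control. The median log2 fold change of the 7 members was 0.17 in LPS versus control and −0.44 in LPS+bLF versus LPS, beside −0.038 and −0.016 over all genes. The members' median was −0.61 and 1.19 without LPS replicate 1, beside −0.040 and 0.0076 over all genes. Without the 3 libraries with fat transcripts it was 0.67 and −2.52, beside 0.0040 and −0.030 over all genes. With LPS replicate 1 left out as well it was −0.83 and 0, beside −0.0029 and −0.0086 over all genes.

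With bLF alone against control, the log2 fold change was −1.09 ± 1.59 for Saa3 and 0.14 ± 0.81 for Serpina3n (SE). Saa3 was at 0.042 there without control replicate 2. In LPS+bLF versus control, Saa3 was at 1.01 ± 1.57 and Serpina3n at 0.25 ± 0.81 (adjusted p = 0.880 and 0.943), and Saa3 was at −0.49 without LPS+bLF replicate 2. The interaction, in which the difference of bLF from control was taken from that of LPS+bLF from LPS, was −2.50 ± 1.16 for Serpina3n (unadjusted p = 0.0544, adjusted p = 1) and −2.48 ± 2.23 for Saa3 (adjusted p = 1). With LPS replicate 1 left out the interaction was −0.096 (unadjusted p = 0.777) for Serpina3n and 2.86 (unadjusted p = 0.0741) for Saa3.

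**Figure D4:**
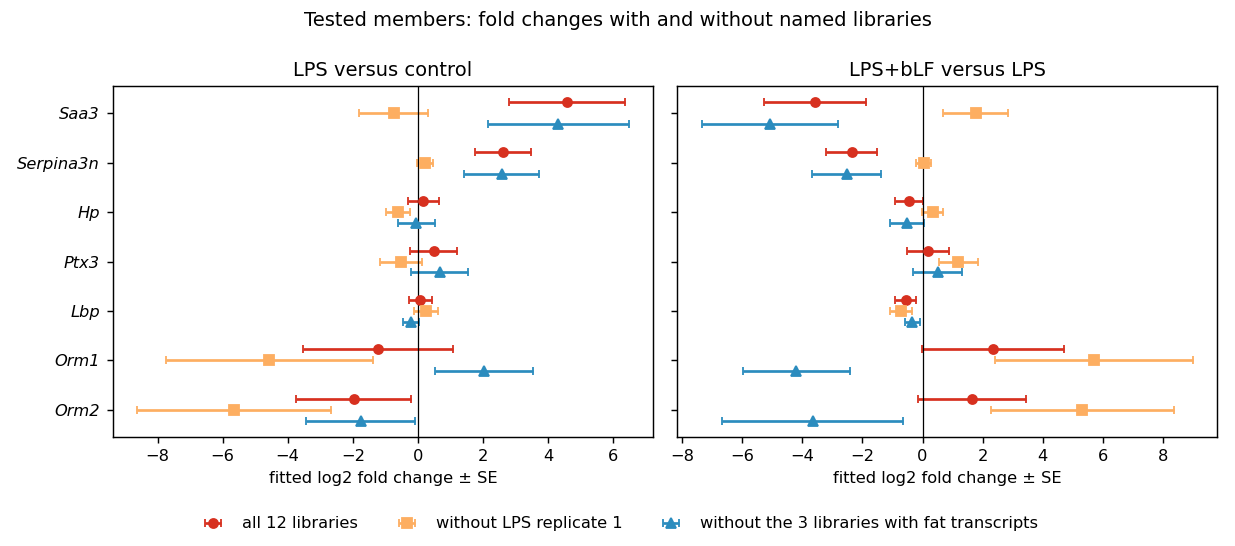
Fitted log2 fold change ± SE of the 7 tested members in LPS versus control (left) and LPS+bLF versus LPS (right), from all 12 libraries (circles), without LPS replicate 1 (squares) and without the 3 libraries with fat transcripts (triangles). Without LPS replicate 1, Saa3 and Hp move across 0 in both panels, Ptx3 in the left and Serpina3n in the right. Without the 3 fat libraries, Orm1 moves across 0 in both panels, Hp and Lbp in the left and Orm2 in the right. Orm2 values without a library can rest on a group at 0 and then depend on the prior count.

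The genes upstream of the members and the other acute-phase genes were read beside them. Of 24 tested genes of IL-6, IL-1 and TNF signalling, 15 were higher and 9 lower in LPS than in control (median log2 fold change 0.16) and 0 were called, with 5 higher and 0 lower at an unadjusted p under 0.05, and 2 had every LPS library above every control library. Over all 13735 genes 6297 were higher and 7438 lower, 758 and 222 of them at an unadjusted p under 0.05. In 4.00% of all genes every LPS library was above every control library. Without LPS replicate 1, where 9 of the 31 listed genes were highest, the 24 were 16 higher and 8 lower (median 0.15). In LPS+bLF versus LPS 5 were higher and 19 lower (median −0.31), and without LPS replicate 1 these were 9 and 15 (median −0.21). Il6 itself was at 0.25, 0.19 and 0.06 FPKM in LPS+bLF, at 1.46, 0.07 and 0.25 in LPS, at 0.19, 0 and 0.27 in bLF, and at 0.07, 0.14 and 0.19 in control, so it too was highest in LPS replicate 1. Socs3, the feedback inhibitor of IL-6 signalling, was at 9.53, 9.69 and 12.5 FPKM in LPS, and at 6.94, 9.64 and 8.52 in control, with no such peak. Cebpb, a C/EBP factor, was at 476.03, 207.65 and 219.04 FPKM in LPS, against 299.64, 105.76 and 162.45 in control. LPS and control overlapped for Il6, Socs3 and Cebpb. In LPS+bLF Socs3 was at 8.69, 5.45 and 7.13 FPKM, below every LPS library (edgeR unadjusted p = 0.0746, adjusted p = 0.689). Of the 24 genes, 2 had every LPS+bLF library below every LPS library and 0 had the reverse, beside 4.91% and 4.15% of all genes.

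Of 26 other acute-phase genes tested, 14 were higher and 12 lower in LPS than in control (median 0.21), with 0 called and 9 higher and 1 lower at an unadjusted p under 0.05. Of all 13735 genes, 758 were higher and 222 lower at that p. Leaving out LPS replicate 1 gave 13 higher and 13 lower (median 0.016), with 5 higher and 1 lower at that p, beside 526 and 161 of all genes. Of the 33 listed, 13 were highest in LPS replicate 1, where the list summed to 19580 FPKM, against at most 4278 FPKM in any other library. Such a sum weighs the most abundant genes most. The list's mean of log2(FPKM + 1) minus the control mean was 0.45 in LPS replicate 1 and 0.439 in LPS+bLF replicate 2. In LPS+bLF versus LPS 8 of the 26 were higher and 18 lower (median −0.48), and without LPS replicate 1 these were 12 and 14 (median −0.039). Lrg1, a leucine-rich glycoprotein of the acute phase, was at 390.35, 194.05 and 213.62 FPKM in LPS, against 139.88, 50.24 and 82.69 in control, with a log2 fold change of 1.71 ± 0.40 (SE, adjusted p = 0.243). Lcn2, which binds bacterial siderophores, was at 511.73, 277.46 and 370.17 FPKM in LPS, against 106.9, 264.87 and 186.31 in control (1.14 ± 0.44, adjusted p = 0.655). Both genes were above every control library in all 3 LPS libraries, as were 6 of the 26 (2 were below), beside 4.00% of all genes. Of 18 lung macrophage markers, 17 were higher in LPS than in control (median 1.12) with 0 called. In 10 of them every LPS library was above every control library, again beside 4.00% of all genes. Without LPS replicate 1, 17 were higher (median 0.947) and 2 were called, beside 25 of all 13735 genes. In LPS+bLF versus LPS 1 was higher and 17 lower (median −0.609), and without LPS replicate 1 these were 2 and 16 (median −0.404). The markers summed to 1530 to 2710 FPKM in LPS+bLF, 2172 to 3096 in LPS, 1358 to 1820 in bLF and 928.7 to 1482 in control. The part of the macrophage markers in the acute-phase levels was not tested. Of 16 tested genes of LPS sensing and of receptors for the members, 13 were higher and 3 lower in LPS than in control (median 0.33) with 0 called, and without LPS replicate 1 these were 12 and 4 (median 0.18). In LPS+bLF versus LPS 2 were higher and 14 lower (median −0.33), and without LPS replicate 1 these were 5 and 11 (median −0.16). Cd14, to which Lbp passes LPS, was at 11.18, 9.64 and 6.49 FPKM in LPS+bLF, against 16.58, 15.42 and 24.95 in LPS (log2 fold change −1.08 ± 0.34, unadjusted p = 0.00913, adjusted p = 0.689). Asgr1, a subunit of the asialoglycoprotein receptor, was at 1.87, 1.59 and 2.05 FPKM in LPS, against 5.81, 8.81 and 5.31 in control (adjusted p = 0.106). It went the other way from Cd14 in LPS+bLF, at 4.71, 5.9 and 7.17 FPKM. Its log2 fold change in LPS+bLF versus LPS was 1.67 ± 0.34 (edgeR unadjusted p = 0.0004625, adjusted p = 0.689). Asgr2, the other subunit, was at 0.53, 5.35 and 2.23 FPKM in LPS, against 1.5, 1 and 1.55 in control (log2 fold change 0.95 ± 0.65).

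As a description over the 12 libraries, with no test, the members fell into few like pairs. Orm1 and Orm2 had a Spearman rho of 0.81, and Orm1 with Saa3 had 0.678 (0.682 without LPS replicate 1). Saa3 with Serpina3n had 0.042, and −0.246 without LPS replicate 1, although both were highest there. By the same measure the 3 genes most like Saa3 were Scg5 (0.916), Retnla (0.902) and Stfa3 (0.868), and those most like Hp were Gsta3 (0.895), S100a9 (0.832) and Ptprr (0.825). Those most like Serpina3n were Tnfaip8l1 (0.865), Abca1 (0.855) and Klhl6 (0.844). Lbp was closest to Gm42267, Tekt2 and Tuba1a (0.958 each), and Orm1 to Sdhb (0.979), Pdhx (0.965) and Vnn3 (0.916). Saa1 averaged at least 1 FPKM through LPS replicate 1 alone, and since its ranks elsewhere rest on 0 to 5 counts no like genes are given for it. Several of the like genes were low too: Scg5 was at 0.58 to 3.07 FPKM, Stfa3 at 0 to 7.51 and Ptprr at 0 to 1.57. Gm42267 was at 0.1 to 1.58 FPKM and Vnn3 at 0.51 to 2.65. Their ranks, and those of Orm2 (at most 14 counts), rest on few reads. All these values come from the same 12 libraries and share their depth and tissue content.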

How the data were processed

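Per the submitters' processing notes, HISAT2 2.1.0, RSEM 1.2.8 and mm10 were used, with no role given. Read length, strand and annotation are not given in the sources used here. Per the file headers, each deposited file holds a count and an FPKM per gene from the authors. The deposited counts were treated like the expected counts that RSEM gives, because 4.12 to 5.91% of values were not whole, and they were rounded. Of 17920 IDs, 17869 matched RefSeq GRCm38.

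The 13735 genes that reached 0.5 FPKM in 3 or more of the 12 libraries were tested in R 4.3.3 with edgeR 4.0.16 (TMM factors, quasi-likelihood fit of 4 group means, 8 residual degrees of freedom, two-sided, Benjamini-Hochberg over all genes, called at an adjusted p under 0.05). The SE was derived from the F statistic. limma 3.58.1 on log2(FPKM + 1) and DESeq2 1.42.0 were alternatives, as were pseudocounts of 0.1 and 5, no filter, other scaling, only the groups compared, a replicate block and leaving out libraries. The code was tested on simulated data. No 2 libraries of a group held the same values.

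Members and gene lists were chosen with earlier results of these data known. Named genes were to be all members, a set of inflammatory and marker genes, and the 2 with the smallest p in each list; part of these is given here. Genes of like pattern were the 3 tested genes with the highest Spearman rho for each member with a mean of at least 1 FPKM.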

Additional observations from a re-analysis of the deposited data

How the results depend on the processing

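No member passed the adjusted threshold under any alternative that gave it a p (DESeq2 gave none for Saa3, Serpina3n and Orm1, and no adjusted p for Orm2 in LPS versus control). A fit of only the groups compared is the reported fit itself for the interaction, so it gave no further value. Counts of all genes called, 0 with the settings reported, differed under some alternatives. In LPS versus control they were 139 by DESeq2, 2 by limma on log2(FPKM + 1), 3 by limma on log2(FPKM + 5) and 19 without the 3 libraries with fat transcripts and LPS replicate 1, and leaving out 1 library each gave 0 to 25, the highest without LPS replicate 1. In LPS+bLF versus LPS they were 7 by DESeq2 and 2 without those 4 libraries, with 0 to 2 when leaving out 1 library each. DESeq2 gave 1 in bLF versus control, 13 in LPS+bLF versus control and 1 in the interaction, where leaving out the 4 libraries also gave 1. At an unadjusted p under 0.05, edgeR had 980, 950, 189, 660 and 384 genes in the 5 comparisons, in the order in which DESeq2 is given here.

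Directions of members that reversed were as follows, and the cause was not tested. In LPS versus control, leaving out 1 library each gave log2 fold changes of −0.75 to 5.74 for Saa3, −0.61 to 0.65 for Hp, −0.21 to 0.36 for Lbp, −0.52 to 0.83 for Ptx3 and −4.57 to 2.03 for Orm1. In LPS+bLF versus LPS these were −5.08 to 1.77 for Saa3, −0.77 to 0.34 for Hp, −0.45 to 1.19 for Ptx3, −2.91 to 0.044 for Serpina3n, −4.19 to 5.70 for Orm1 and −3.66 to 5.32 for Orm2, where Orm2 without a library can rest on a group at 0. Leaving out 1 library each gave, for Saa3, −1.96 to 0.042 in bLF versus control, −0.49 to 2.16 in LPS+bLF versus control and −3.99 to 2.86 in the interaction, and for Serpina3n −0.037 to 0.32 in bLF versus control. By limma Hp was −0.023 (pseudocount 1), −0.024 (pseudocount 0.1) and −0.023 (pseudocount 5) in LPS versus control. Without the 3 fat libraries, LPS versus control was −0.049 for Hp, −0.21 for Lbp and 2.04 for Orm1, and LPS+bLF versus LPS was −4.20 for Orm1 and −3.65 for Orm2. Without LPS replicate 1 as well, LPS versus control was −1.03 for Saa3, −0.83 for Hp (edgeR unadjusted p = 0.0316), −0.044 for Lbp and −0.34 for Ptx3. In the same setting LPS+bLF versus LPS was 0.26 for Saa3, 0.27 for Hp and −0.84 for Orm1. Saa3 in LPS+bLF versus control was −0.77 without the 3 fat libraries and −0.77 without all 4, and its interaction was 2.51 (unadjusted p = 0.0339) without the 4. Orm2 gave no value without the 4 in LPS+bLF versus LPS because both groups were at 0.

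Whether the replicate numbers pair the samples is not stated in the labels. Deviations from group means had correlations of −0.688 to 0.569 (median 0.036) in 18 same-numbered pairs of libraries. In 36 pairs with different numbers they were −0.567 to 0.69 (median 0.018). Such correlations also carry tissue content and cannot decide whether the samples are paired. With a replicate block the counts of calls stayed at 0 and no member changed sign in LPS versus control or LPS+bLF versus LPS (Saa3 3.34, Serpina3n 2.05 in LPS versus control), but the unadjusted p of Saa3 (0.145) and Serpina3n (0.0558 and, in LPS+bLF versus LPS, 0.0744) was no longer under 0.05.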
